A study of Saccharomyces cerevisiae with 6 samples.

Results

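The general stress-induced genes are a set of 39 yeast genes grouped for their known or reported induction by heat, osmotic, oxidative or nutrient stress, out of 5449 Saccharomyces cerevisiae genes measured. Members were taken by gene symbol from the platform annotation: 38 matched directly, and APE1 was matched through its older name LAP4. Each of the 39 had 1 probe set, and 0 of these were of the type marked as able to detect several related transcripts. The set was proposed with earlier results of the same arrays in view, so its changes are given as a description, without p-values, and no count over its members is evidence that stress genes in general changed. The measurements are RMA log2 expression values from 6 arrays, a scale on which a difference of 1 is 2-fold.

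Total RNA came from strains 62A (1 array), 62B (2 arrays) and 62C (1 array), which are mutants adapted to galactose by laboratory evolution, and from the wild type CEN.PK113-7D, the reference (2 arrays). The evolved strains carry the CEN.PK113-7D background. The cultures behind all 6 arrays grew on minimal glucose medium in fermenters controlled at pH 5.0 and were sampled in mid exponential phase. None of the groups was thus on galactose and none was given a stress. The labels name no mutation of any evolved strain and do not say whether paired arrays came from separate cultures. Each evolved strain stands for 1 evolution line, and the spread between arrays may be technical. The comparison sets strains adapted to galactose against the wild type, all grown on glucose. No line evolved without galactose is among the 6 arrays. Adaptation to galactose therefore cannot be told apart from other changes acquired during the evolution.

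In growing yeast with ample glucose, the Ras/cAMP pathway keeps protein kinase A active, and this kinase holds the zinc finger factors Msn2 and Msn4 out of the nucleus. When the pathway is dampened or a stress arrives, these factors enter the nucleus and bind stress response elements in the promoters of a large shared set of genes. Many products of these genes protect membranes and proteins, detoxify reactive compounds, recycle proteins in the vacuole or store energy, and the set as a whole is characteristically high in slowly growing or starved cells.

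Arrays of the same strain were close. Over the 39 genes the log2 difference between replicate arrays had an SD of 0.0707 for 62B and of 0.129 for the reference. The largest difference within a pair was 0.53, for TMA10 in the reference. Background, taken as the 95th percentile of probe sets for another yeast species, was 5.07 on the log2 scale, and 0 of the 39 genes had a mean over the arrays below it. Several lay close to it (GRE1, MOH1, FMP45, ISF1, XBP1 and MRK1 in the reference, for example), where hybridisation background compresses a change. RNA integrity can be gauged from the log2 signal of 3′ minus 5′ control probe sets. Averaged over 8 control genes this difference was 1.89 in 62A, 2.01 and 2.05 in 62B and 1.73 in 62C, against 1.90 and 1.84 in the reference. For the separate ACT1 probe pair it was 1.49, 1.58 and 1.73, and 1.41 in the same evolved arrays, against 1.40 and 1.27 in the reference. Both reference arrays were thus below every evolved array for ACT1, by little for 62C, and between the evolved arrays for the average of the control genes. The labels name no batch.

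Most of the set was higher in every evolved strain than in the reference, and most strongly in 62C. For 32 of the 39 genes each of the 4 evolved arrays was above both arrays of the reference, and for 1 (GRE2) each was below. The arrays of the remaining 6 genes overlapped. The ACT1 difference between 3′ and 5′ probe sets was higher on every evolved array too, and its part in the changes of the set was not tested. Of all genes measured, 18.2% had every evolved array above both reference arrays and 27.4% had every one below. The median log2 change of the set was 0.55 in 62A, 0.34 in 62B and 0.88 in 62C, while the median over all 5449 genes was −0.04, −0.01 and −0.04. In the limma fit over all 6 arrays (Benjamini-Hochberg adjustment over all genes, threshold 0.05), 32 of the 39 genes were called higher in 62A, where 10.0% of all genes were. In 62B 29 were called higher (20.1% of all genes), and in 62C 36 were (14.7% of all genes). In none of the 3 strains was a member called lower in limma (0 members below the reference had an unadjusted p under 0.05), against 14.9%, 21.3% and 23.3% of all genes in 62A, 62B and 62C. In all 3 strains at once 27 of the 39 were called higher (6.44% of all genes). These 3 comparisons share the reference arrays. With 1 array each for 62A and 62C, their calls and standard errors (±) use the spread of the 62B and reference pairs. The spread within 62A or 62C was not measured. Since the set was proposed from the same arrays, the counts describe it and nothing is read from their size. Genes called with a rise of at least 2-fold numbered 13 in 62A, 2 in 62B and 17 in 62C (0.881%, 0.349% and 1.63% of all genes).

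**Figure D1:**
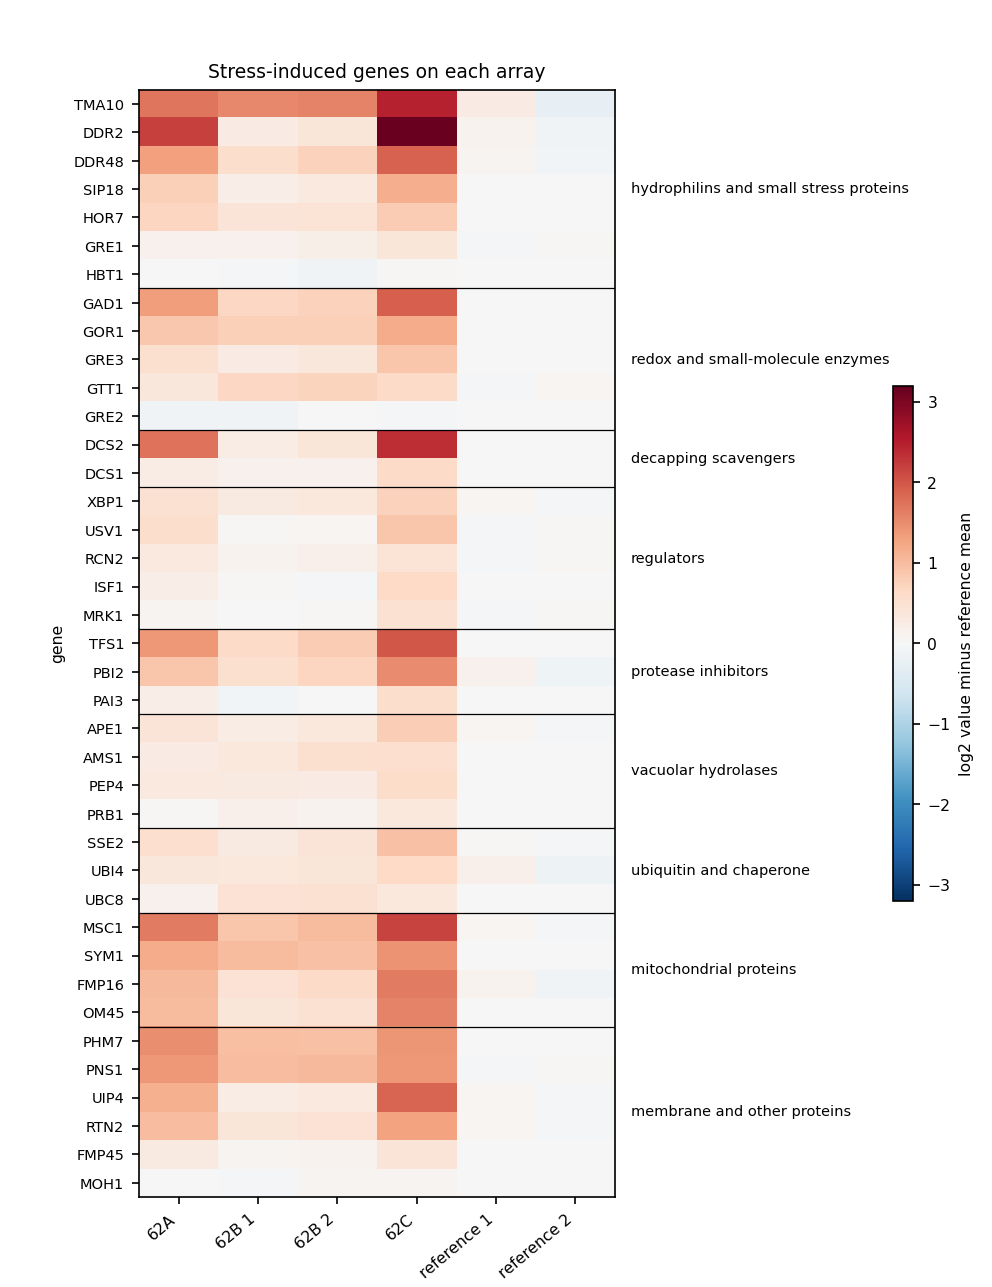
Log2 value of each of the 39 genes on each array minus the mean of both reference arrays (colour scale; columns are arrays, rows are genes grouped by role). Red fills most of the 62A and 62C columns and is paler in the 62B columns, while GRE2, HBT1 and MOH1 stay near 0 in all of them.

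With each evolved strain counted as 1 sample (the 2 arrays of 62B averaged first, and 3 strains set against 2 reference arrays), 6 of the 39 genes were called higher and 0 lower, where 1.96% and 2.79% of all genes were. The 6 were TMA10, PHM7, PNS1, SYM1, GOR1 and HOR7, and 28 of the 39 had an unadjusted p under 0.05, 0 of them lower. Of all 5449 genes, 1555 had an unadjusted p under 0.05 in this limma fit, in either direction. The 6 calls fell to 0 in limma without 62A, to 4 without 62C, and to 2 with strain as a random block. Without 62A, 23 members had an unadjusted p under 0.05 in limma, as did 1061 of all 5449 genes. The calls were also lost without either reference array, where a single reference array remained. The spread in this comparison includes the difference between strains, which was wide for many of these genes: the SD over the 3 strains was 1.43 for DDR2, 1.05 for DCS2 and 0.22 for PNS1.

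Among the 7 genes grouped as hydrophilins and small stress proteins, TMA10, DDR2 and DDR48 changed by the widest margins. HBT1, a long gene of 3141 bases in the same group, hardly differed. TMA10, whose product associates with ribosomes, had log2 values of 8.73 in 62A, 8.55 and 8.61 in 62B and 9.49 in 62C, against 7.28 and 6.75 in the reference. All evolved arrays were high and both 62B arrays stood close to 62A, and the log2 change was 1.71 ± 0.16 in 62A, 1.56 ± 0.13 in 62B and 2.47 ± 0.16 in 62C. DDR2, a multi-stress gene whose product has no assigned function, had 8.66 in 62A, 6.75 and 6.88 in 62B and 9.64 in 62C, against 6.60 and 6.36 in the reference. Its level in 62C was 8.94-fold and in 62A 4.54-fold that of the reference, but in 62B only 1.26-fold (log2 changes 3.16 ± 0.09, 2.18 ± 0.09 and 0.34 ± 0.08). DDR48, a DNA damage-responsive gene, had 9.63 in 62A, 8.87 and 9.06 in 62B and 10.20 in 62C, against 8.40 and 8.24 in the reference. Its evolved arrays did not overlap the reference, and the log2 change was 1.31 ± 0.09 in 62A, 0.65 ± 0.07 in 62B and 1.88 ± 0.09 in 62C.

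HOR7, responsive to hyperosmotic stress, had values of 12.50 in 62A, 12.22 and 12.26 in 62B and 12.62 in 62C, against 11.82 and 11.80 in the reference. The log2 change was 0.69 ± 0.06 in 62A, 0.43 ± 0.05 in 62B and 0.81 ± 0.06 in 62C, without overlap of the groups. SIP18 and GRE1 encode hydrophilins, small water-loving proteins that accumulate on drying. SIP18 had values of 6.35 in 62A, 5.81 and 5.89 in 62B and 6.74 in 62C, against 5.61 and 5.57 in the reference, with the evolved arrays all higher (log2 change 0.77 ± 0.06 in 62A, 0.26 ± 0.05 in 62B and 1.15 ± 0.06 in 62C). GRE1 lay near background, at 5.31 in 62A, 5.33 and 5.38 in 62B and 5.58 in 62C, against 5.14 and 5.22 in the reference, and was called higher in 62B and 62C only (0.14 ± 0.06 in 62A, 0.17 ± 0.05 in 62B and 0.40 ± 0.06 in 62C). HBT1, a target of the ubiquitin-like protein Hub1 that acts in polarised growth, had 5.72 in 62A, 5.66 and 5.58 in 62B and 5.73 in 62C, against 5.69 and 5.71 in the reference. The strains fell on both sides of the reference, with changes of 0.02 in 62A, −0.08 in 62B and 0.03 in 62C, and HBT1 was called in no strain.

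Of the 5 enzymes of redox and small-molecule metabolism, GAD1, GOR1, GRE3 and GTT1 were called higher in each strain, where 6.44% of all genes were. GRE2 was called in none. GAD1, glutamate decarboxylase, had values of 7.41 in 62A, 6.73 and 6.83 in 62B and 7.99 in 62C, against 6.07 and 6.09 in the reference. Both reference arrays were low and close together, 62C was highest, and the log2 change was 1.33 ± 0.06 in 62A, 0.70 ± 0.05 in 62B and 1.91 ± 0.06 in 62C. GOR1, a glyoxylate reductase, had values of 8.10 in 62A, 8.00 and 8.02 in 62B and 8.43 in 62C, against 7.27 and 7.22 in the reference; the log2 change was similar in 62A and 62B (0.85 ± 0.06 and 0.76 ± 0.05) and 1.18 ± 0.06 in 62C. GRE3, an aldose reductase that also acts on xylose and methylglyoxal, gave 8.34 in 62A, 8.09 and 8.17 in 62B and 8.71 in 62C, against 7.80 and 7.84 in the reference. These evolved arrays too exceeded the reference, with a log2 change of 0.52 ± 0.06 in 62A, 0.31 ± 0.05 in 62B and 0.89 ± 0.06 in 62C.

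GTT1, a glutathione transferase, read 7.52 in 62A, 7.82 and 7.86 in 62B and 7.78 in 62C, against 7.09 and 7.23 in the reference. Here 62B was the highest strain and 62A the lowest of the evolved ones, with log2 changes of 0.36 ± 0.07 in 62A, 0.68 ± 0.06 in 62B and 0.62 ± 0.07 in 62C. GRE2, a reductase of methylglyoxal and other aldehydes, gave 8.30 in 62A, 8.29 and 8.39 in 62B and 8.36 in 62C, against 8.40 and 8.42 in the reference. Its 4 evolved arrays were all slightly below the reference, by log2 changes of −0.11 ± 0.06 in 62A, −0.07 ± 0.05 in 62B and −0.05 ± 0.06 in 62C, none of which was called.

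DCS1 encodes the scavenger enzyme that hydrolyses the cap left after mRNA decay, and DCS2 its close relative, which is thought to regulate it. DCS2 had values of 7.68 in 62A, 6.17 and 6.33 in 62B and 8.30 in 62C, against 5.96 and 5.91 in the reference. It was high in 62A and 62C and close to the reference in 62B, with log2 changes of 1.74 ± 0.07 in 62A, 0.31 ± 0.06 in 62B and 2.37 ± 0.07 in 62C. For DCS1 the values were 7.22 in 62A, 7.12 and 7.11 in 62B and 7.59 in 62C, against 6.98 and 6.96 in the reference, also without overlap but with smaller changes of 0.24 ± 0.06 in 62A, 0.14 ± 0.05 in 62B and 0.62 ± 0.06 in 62C. Both genes were called higher in each strain, where 6.44% of all genes were.

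The regulators in the set had smaller changes, none of them reaching 2-fold. XBP1, a transcriptional repressor induced by stress, had values of 5.56 in 62A, 5.35 and 5.40 in 62B and 5.81 in 62C, against 5.12 and 5.02 in the reference, and all evolved arrays were above the reference (log2 change 0.49 ± 0.06 in 62A, 0.30 ± 0.05 in 62B and 0.73 ± 0.06 in 62C). USV1, a zinc finger factor, gave 6.07 in 62A, 5.54 and 5.59 in 62B and 6.40 in 62C, against 5.49 and 5.54 in the reference. It was raised in 62A and 62C and level with the reference in 62B, whose arrays overlapped those of the reference (0.56 ± 0.06 in 62A, 0.05 ± 0.05 in 62B and 0.88 ± 0.06 in 62C).

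RCN2, related to the calcineurin regulator RCN1, read 7.15 in 62A, 6.94 and 6.99 in 62B and 7.28 in 62C, against 6.80 and 6.87 in the reference, with log2 changes of 0.32 ± 0.06 in 62A, 0.14 ± 0.05 in 62B and 0.45 ± 0.06 in 62C. ISF1, a gene linked to mitochondrial function, gave 5.38 in 62A, 5.19 and 5.13 in 62B and 5.81 in 62C, against 5.16 and 5.16 in the reference. In 62B its change was near 0 (0.00 ± 0.05), while 62A and 62C were called higher (0.22 ± 0.06 and 0.65 ± 0.06). MRK1, a kinase of the glycogen synthase kinase 3 family, had 5.47 in 62A, 5.41 and 5.41 in 62B and 5.88 in 62C, against 5.35 and 5.43 in the reference. It was called higher in 62C alone (0.49 ± 0.06, against 0.08 in 62A and 0.02 in 62B). Of these 5 regulators, 4 were called higher in 62A, 1 in 62B (XBP1) and 5 in 62C, where 10.0%, 20.1% and 14.7% of all genes were. The count in 62B is at the share of all genes.

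**Figure D2:**
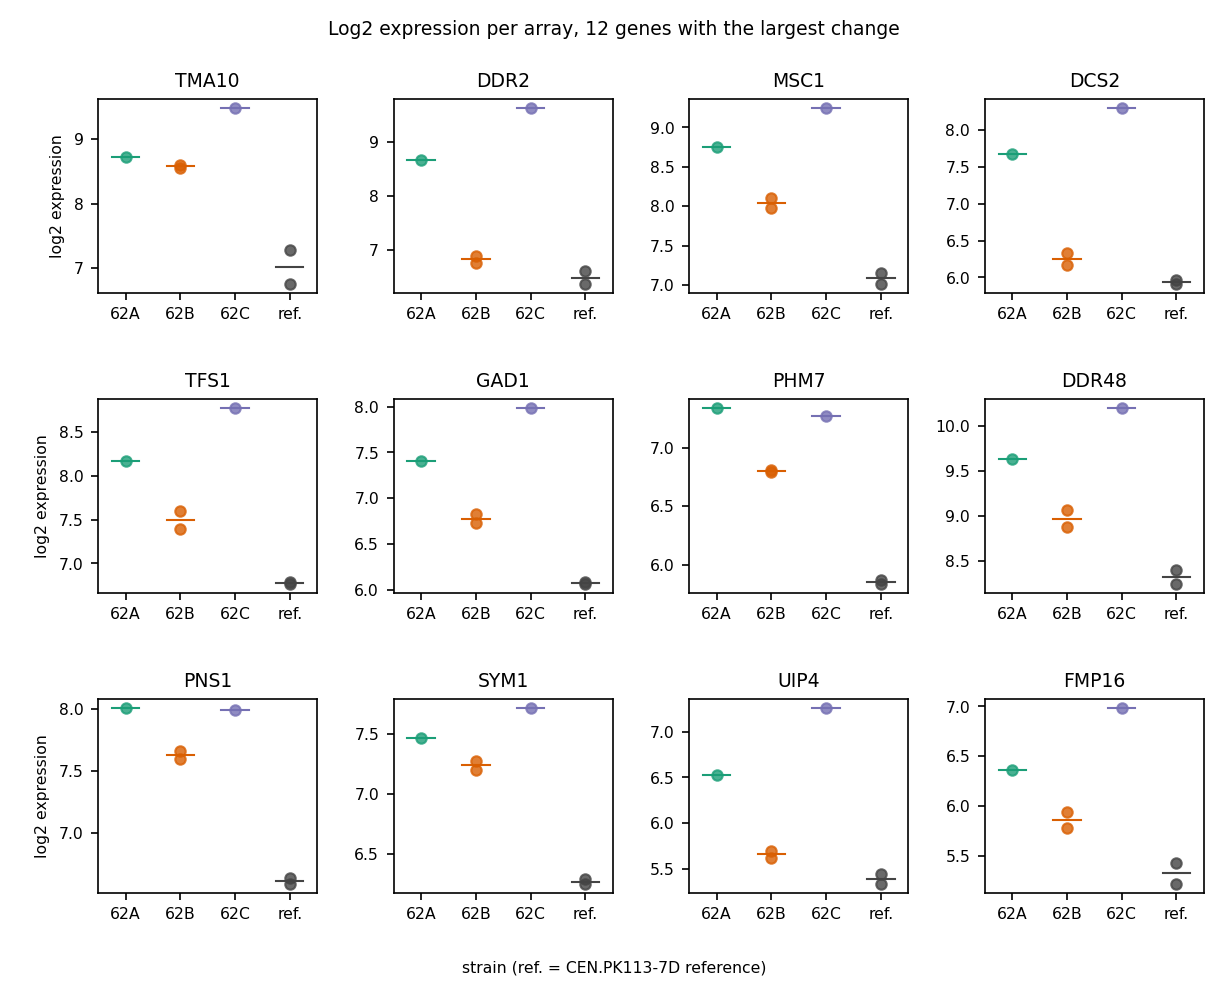
Log2 expression on each array (points) for the 12 genes with the largest log2 change between evolved strains and reference; lines mark the strain mean, and each panel has its own scale. In every panel the evolved arrays lie above both reference arrays, and for DDR2, DCS2 and UIP4 the 62B arrays sit close to the reference.

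The vacuole of yeast holds proteases that are made as precursors, and small cytosolic proteins inhibit them. The inhibitor genes TFS1 and PBI2 had larger changes than the protease genes of the set. TFS1, the inhibitor of carboxypeptidase Y, had values of 8.17 in 62A, 7.39 and 7.59 in 62B and 8.77 in 62C, against 6.79 and 6.77 in the reference. The reference arrays were low and nearly equal, and the log2 change was 1.39 ± 0.08 in 62A, 0.71 ± 0.07 in 62B and 1.99 ± 0.08 in 62C. PBI2, the inhibitor of proteinase B, gave 9.19 in 62A, 8.83 and 9.00 in 62B and 9.83 in 62C, against 8.45 and 8.17 in the reference. Its reference arrays differed by more than those of most members, yet no evolved array overlapped them (0.88 ± 0.11 in 62A, 0.60 ± 0.09 in 62B and 1.52 ± 0.11 in 62C). PAI3, the inhibitor of proteinase A, had 5.73 in 62A, 5.44 and 5.52 in 62B and 6.08 in 62C, against 5.51 and 5.54 in the reference. It was higher in 62A and 62C (0.20 ± 0.06 and 0.55 ± 0.06) but not in 62B, where one array lay below both reference arrays and the change was −0.05 ± 0.05.

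PEP4, proteinase A, which matures the other vacuolar hydrolases, had values of 10.31 in 62A, 10.29 and 10.27 in 62B and 10.58 in 62C, against 9.98 and 10.01 in the reference, with log2 changes of 0.32 ± 0.06 in 62A, 0.28 ± 0.05 in 62B and 0.58 ± 0.06 in 62C. PRB1, proteinase B, gave 7.70 in 62A, 7.81 and 7.77 in 62B and 8.00 in 62C, against 7.64 and 7.68 in the reference. Its evolved arrays all exceeded the reference, but only 62C was called (0.04 ± 0.06 in 62A, 0.13 ± 0.05 in 62B and 0.34 ± 0.06 in 62C). APE1, the aminopeptidase delivered to the vacuole from the cytosol, read 9.17 in 62A, 8.99 and 9.08 in 62B and 9.55 in 62C, against 8.82 and 8.69 in the reference (0.41 ± 0.07 in 62A, 0.28 ± 0.06 in 62B and 0.79 ± 0.07 in 62C). AMS1, the vacuolar alpha-mannosidase, had 6.37 in 62A, 6.46 and 6.62 in 62B and 6.66 in 62C, against 6.09 and 6.12 in the reference, and 62B lay between 62A and 62C (0.27 ± 0.07 in 62A, 0.43 ± 0.06 in 62B and 0.55 ± 0.07 in 62C). Median log2 changes were 0.88 in 62A, 0.60 in 62B and 1.52 in 62C over the 3 inhibitors, and 0.29, 0.28 and 0.57 over the 4 hydrolases.

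Carboxypeptidase Y itself, PRC1, is outside the set. It had log2 values of 9.88 in 62A, 9.73 and 9.72 in 62B and 10.14 in 62C, against 9.67 and 9.50 in the reference, and its changes were 0.30 ± 0.07 in 62A, 0.14 ± 0.06 in 62B and 0.55 ± 0.07 in 62C (limma adjusted p = 0.0176, 0.0856 and 0.000401). PRC1 is 1 of a list of 10 hydrolases outside the set, of which 9 were measured. PRC1 included, 2 were called higher and 1 lower in 62A (10.0% and 14.9% of all genes), 2 and 1 in 62B (20.1% and 21.3%), and 3 and 2 in 62C (14.7% and 23.3%), with medians of 0.07, 0.09 and 0.18. That list was too broad: LAP3, YPS1 and NTH2 on it act outside the vacuole. ATH1, the acid trehalase, was called higher in each strain (0.47 ± 0.07 in 62A, 0.42 ± 0.06 in 62B and 0.75 ± 0.07 in 62C), and LAP3, a cytosolic cysteine aminopeptidase, was called lower in each (−0.30 ± 0.06 in 62A, −0.29 ± 0.05 in 62B and −0.20 ± 0.06 in 62C). PHO8, the vacuolar alkaline phosphatase, was called higher in 62B (0.23 ± 0.05, limma adjusted p = 0.00438) and lower in 62C (−0.25 ± 0.06, limma adjusted p = 0.0085).

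UBI4, the polyubiquitin gene that supplies ubiquitin under stress, had values of 9.57 in 62A, 9.53 and 9.58 in 62B and 9.84 in 62C, against 9.35 and 9.05 in the reference. The log2 change was 0.37 ± 0.10 in 62A, 0.36 ± 0.09 in 62B and 0.64 ± 0.10 in 62C, though its reference arrays were 0.30 apart. UBC8, a ubiquitin-conjugating enzyme that acts in the glucose-induced destruction of a gluconeogenic enzyme, gave 7.56 in 62A, 7.90 and 7.91 in 62B and 7.77 in 62C, against 7.42 and 7.44 in the reference. It was highest in 62B, with changes of 0.13 ± 0.06 in 62A, 0.47 ± 0.05 in 62B and 0.34 ± 0.06 in 62C, and was called in 62B and 62C but not in 62A. SSE2, a stress-induced Hsp110 chaperone, read 6.85 in 62A, 6.58 and 6.72 in 62B and 7.22 in 62C, against 6.34 and 6.26 in the reference, and was called higher in all 3 strains (0.55 ± 0.07 in 62A, 0.35 ± 0.06 in 62B and 0.93 ± 0.07 in 62C).

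All 4 genes for mitochondrial proteins were higher on every evolved array than on both reference arrays, where 18.2% of all genes were. MSC1 had values of 8.75 in 62A, 7.98 and 8.10 in 62B and 9.25 in 62C, against 7.16 and 7.01 in the reference, and the log2 change was 1.67 ± 0.08 in 62A, 0.95 ± 0.06 in 62B and 2.16 ± 0.08 in 62C. SYM1, a relative of the mammalian inner membrane protein MPV17, gave 7.46 in 62A, 7.27 and 7.20 in 62B and 7.72 in 62C, against 6.25 and 6.29 in the reference. Its changes differed less between strains than those of the other 3 (1.20 ± 0.06 in 62A, 0.97 ± 0.05 in 62B and 1.45 ± 0.06 in 62C). OM45, an abundant outer membrane protein, had 6.74 in 62A, 6.11 and 6.21 in 62B and 7.32 in 62C, against 5.73 and 5.73 in the reference, with 62B closest to the reference (1.01 ± 0.06 in 62A, 0.43 ± 0.05 in 62B and 1.59 ± 0.06 in 62C). FMP16, found in mitochondria and without a known role, gave 6.36 in 62A, 5.78 and 5.94 in 62B and 6.98 in 62C, against 5.43 and 5.22 in the reference (1.04 ± 0.10 in 62A, 0.53 ± 0.08 in 62B and 1.66 ± 0.10 in 62C). At least a 2-fold increase was reached by 4 of these 4 genes in 62A and in 62C and by 0 in 62B. Of all genes, 0.881% in 62A, 0.349% in 62B and 1.63% in 62C were called with such a rise.

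PHM7 and PNS1 encode membrane proteins, PNS1 being related to choline transporters. PHM7 had values of 7.34 in 62A, 6.81 and 6.79 in 62B and 7.27 in 62C, against 5.87 and 5.84 in the reference, and PNS1 of 8.01 in 62A, 7.59 and 7.66 in 62B and 7.99 in 62C, against 6.59 and 6.64 in the reference. In both genes 62A and 62C were level and 62B only somewhat lower: the log2 change of PHM7 was 1.49 ± 0.06 in 62A, 0.95 ± 0.05 in 62B and 1.42 ± 0.06 in 62C, and that of PNS1 was 1.39 ± 0.06 in 62A, 1.01 ± 0.05 in 62B and 1.38 ± 0.06 in 62C. TMA10 and PNS1 were the 2 members at least 2-fold higher in 62B.

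UIP4, a protein of the nuclear envelope and endoplasmic reticulum, read 6.52 in 62A, 5.62 and 5.69 in 62B and 7.26 in 62C, against 5.45 and 5.33 in the reference. It showed the opposite balance, with 62B near the reference and 62C far above it (1.13 ± 0.07 in 62A, 0.27 ± 0.06 in 62B and 1.87 ± 0.07 in 62C). RTN2, a reticulon that shapes the endoplasmic reticulum, gave 6.38 in 62A, 5.79 and 5.85 in 62B and 6.68 in 62C, against 5.47 and 5.34 in the reference, without overlap (0.98 ± 0.07 in 62A, 0.42 ± 0.06 in 62B and 1.28 ± 0.07 in 62C). FMP45, of the SUR7 family of cell cortex proteins, had 5.39 in 62A, 5.18 and 5.22 in 62B and 5.52 in 62C, against 5.10 and 5.11 in the reference, and was called in 62A and 62C but not in 62B (0.29 ± 0.06 in 62A, 0.10 ± 0.05 in 62B and 0.42 ± 0.06 in 62C). MOH1, linked to survival in stationary phase, had 5.24 in 62A, 5.22 and 5.34 in 62B and 5.36 in 62C, against 5.26 and 5.27 in the reference. Its arrays overlapped, and its changes of −0.02 in 62A, 0.02 in 62B and 0.10 in 62C were called in no strain.

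The evolved strains differed from one another in most of the set. In 30 of the 39 genes the strain means ran from 62C through 62A down to 62B, an order held by 24.2% of all genes. The order 62C, 62B, 62A was held by 5 members (9.23% of all genes), 62A, 62C, 62B by 2, PHM7 and PNS1 (10.2% of all genes), and 62B, 62C, 62A by 2, GTT1 and UBC8 (15.4% of all genes). Between 62C and 62A the difference of PHM7 was −0.07 ± 0.07 and that of PNS1 −0.02 ± 0.07, both about the size of the error or under it. Set against the mean of 62A and 62C, 62B was called lower in 30 genes and higher in 2, where 13.8% and 20.3% of all genes were. The median difference over the set was −0.37 and over all genes 0.02. The widest gaps were those of DDR2 (−2.33 ± 0.08), DCS2 (−1.74 ± 0.06) and UIP4 (−1.23 ± 0.06), each over 2-fold, followed by TFS1 (−0.98 ± 0.07) and MSC1 (−0.96 ± 0.06). At the other end, UBC8 (0.24 ± 0.05) and GTT1 (0.19 ± 0.06) were the members called higher in 62B; that count was 0 without either 62B array and 1 with a replicate block. The genes with the smallest gaps were not simply those with small changes, since AMS1 was 0.43 above the reference in 62B and its gap was 0.02 ± 0.06.

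Between the single arrays of 62C and 62A, 37 of the 39 differences were above 0 and 18 were called higher in 62C, where 1.91% of all genes were. In this comparison 0 members were called lower (0.514% of all genes), and the 2 differences below 0 were those of PHM7 and PNS1. The median difference was 0.33 over the set and −0.0032 over all genes. DDR2 (0.98 ± 0.11), TMA10 (0.76 ± 0.19) and UIP4 (0.74 ± 0.08) differed most, although TMA10, with its wider error, was not called. As 62A and 62C have 1 array each, these calls borrow the spread of the 62B and reference pairs: the 18 calls became 6 without either 62B array and 29 without either reference array. Between the evolved strains the 3′ minus 5′ control differences ran in the reverse order of the set's medians, 1.73 in 62C, 1.89 in 62A and 2.01 and 2.05 in 62B. The reference arrays, at 1.90 and 1.84, lay between those of 62B and 62C. The ACT1 pair gave the same order among evolved arrays, with both reference arrays lowest. Within 62B the array with the higher control and ACT1 differences also had the higher set median above the reference mean, 0.40 against 0.28. The part of RNA integrity in the differences between strains was not tested.

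**Figure D3:**
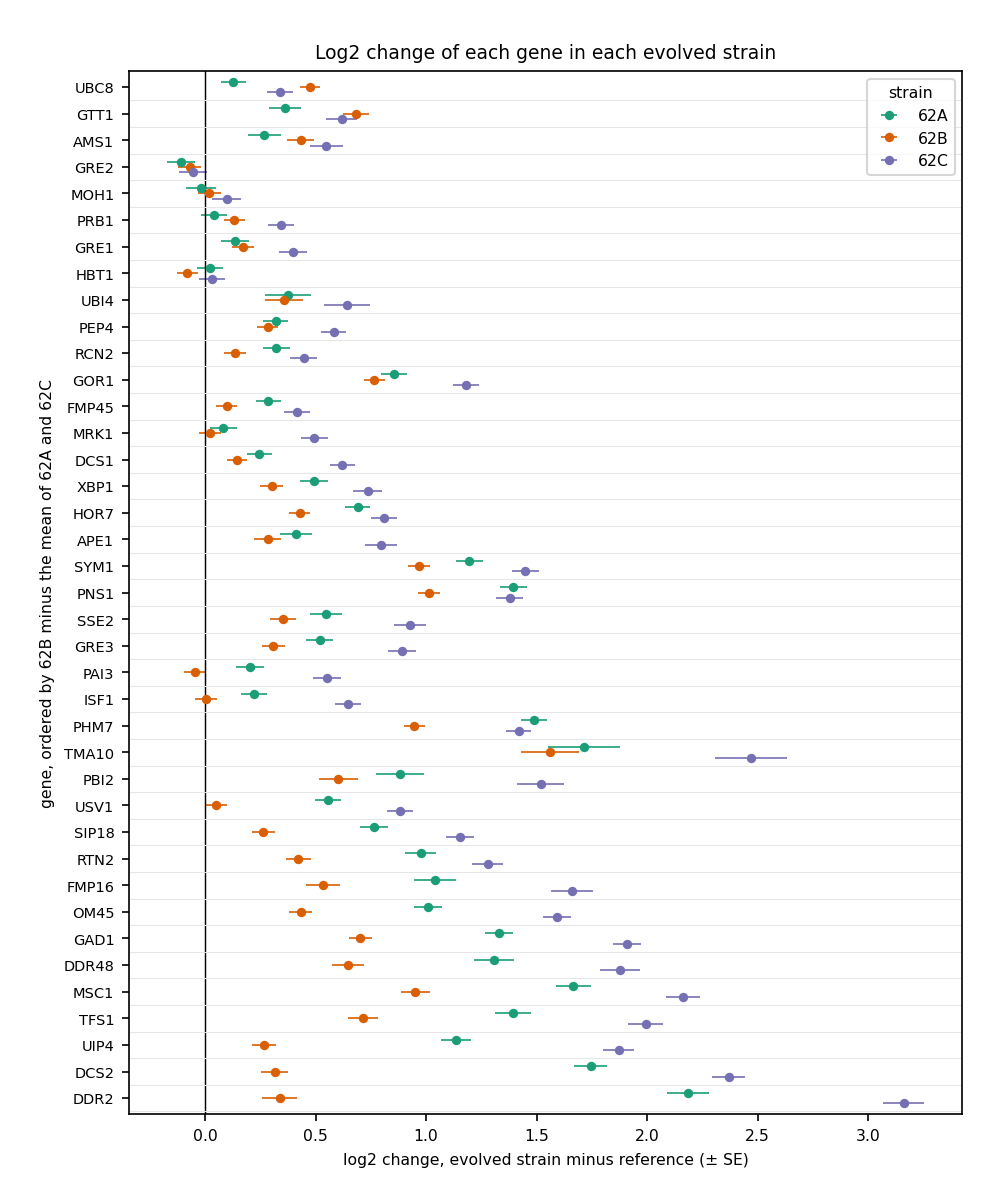
Log2 change of each gene in 62A, 62B and 62C relative to the reference (points, with standard errors of the limma fit), ordered from the gene most raised in 62B relative to the mean of 62A and 62C at the top to DDR2 at the bottom. The 62B points fall progressively left of the others down the plot, from UBC8 to UIP4, DCS2 and DDR2.

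Several members have a related gene in the genome, and the changes of such pairs can be set side by side. The log2 change of DDR2 was 2.18 in 62A, 0.34 in 62B and 3.16 in 62C, and that of its relative HOR7 was 0.69 in 62A, 0.43 in 62B and 0.81 in 62C, so DDR2 had the larger value in 62A and 62C and the smaller one in 62B. SIP18 had a larger change than GRE1 in each strain, and DCS2 a larger one than DCS1. TMA10 and STF2, an ATP synthase-associated gene, were alike in size: STF2 had values of 11.18 in 62A, 10.51 and 10.50 in 62B and 11.51 in 62C, against 9.30 and 9.03 in the reference, with log2 changes of 2.01 ± 0.10 in 62A, 1.34 ± 0.08 in 62B and 2.34 ± 0.10 in 62C (limma adjusted p = 1.54e-06, 3.63e-06 and 2.81e-07). The difference between the genes of a pair was not tested.

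The other relatives outside the set had log2 changes of at most 0.30 in size in any strain. SSE1, the main Hsp110 chaperone, had values of 10.79 in 62A, 10.98 and 10.88 in 62B and 10.66 in 62C, against 10.93 and 10.92 in the reference, and was called lower in 62C (−0.26 ± 0.06, limma adjusted p = 0.0105). RTN1, the main reticulon, read 10.50 in 62A, 10.63 and 10.53 in 62B and 10.57 in 62C, against 10.61 and 10.57 in the reference; its changes of −0.09 in 62A, −0.01 in 62B and −0.02 in 62C were not called. GTT2, the second glutathione transferase, gave 5.56 in 62A, 5.64 and 5.66 in 62B and 5.60 in 62C, against 5.81 and 5.86 in the reference. It was called lower in each strain (−0.28 ± 0.06 in 62A, −0.18 ± 0.05 in 62B and −0.24 ± 0.06 in 62C), whereas GTT1 was called higher in each. SUR7 gave 9.99 in 62A, 10.03 and 10.01 in 62B and 9.89 in 62C, against 9.89 and 9.99 in the reference, and RCN1, the relative of RCN2, gave 6.29 in 62A, 6.20 and 6.27 in 62B and 6.34 in 62C, against 6.23 and 6.28 in the reference. In both the groups overlapped and no strain was called. MBR1, the relative of ISF1, had 5.23 in 62A, 5.31 and 5.33 in 62B and 5.31 in 62C, against 5.16 and 5.04 in the reference, and RIM11, the relative of MRK1, 7.32 in 62A, 7.35 and 7.33 in 62B and 7.51 in 62C, against 7.16 and 7.26 in the reference. MBR1 was called higher in 62B and 62C (0.22 and 0.22) and RIM11 in 62C (0.30).

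**Figure D4:**
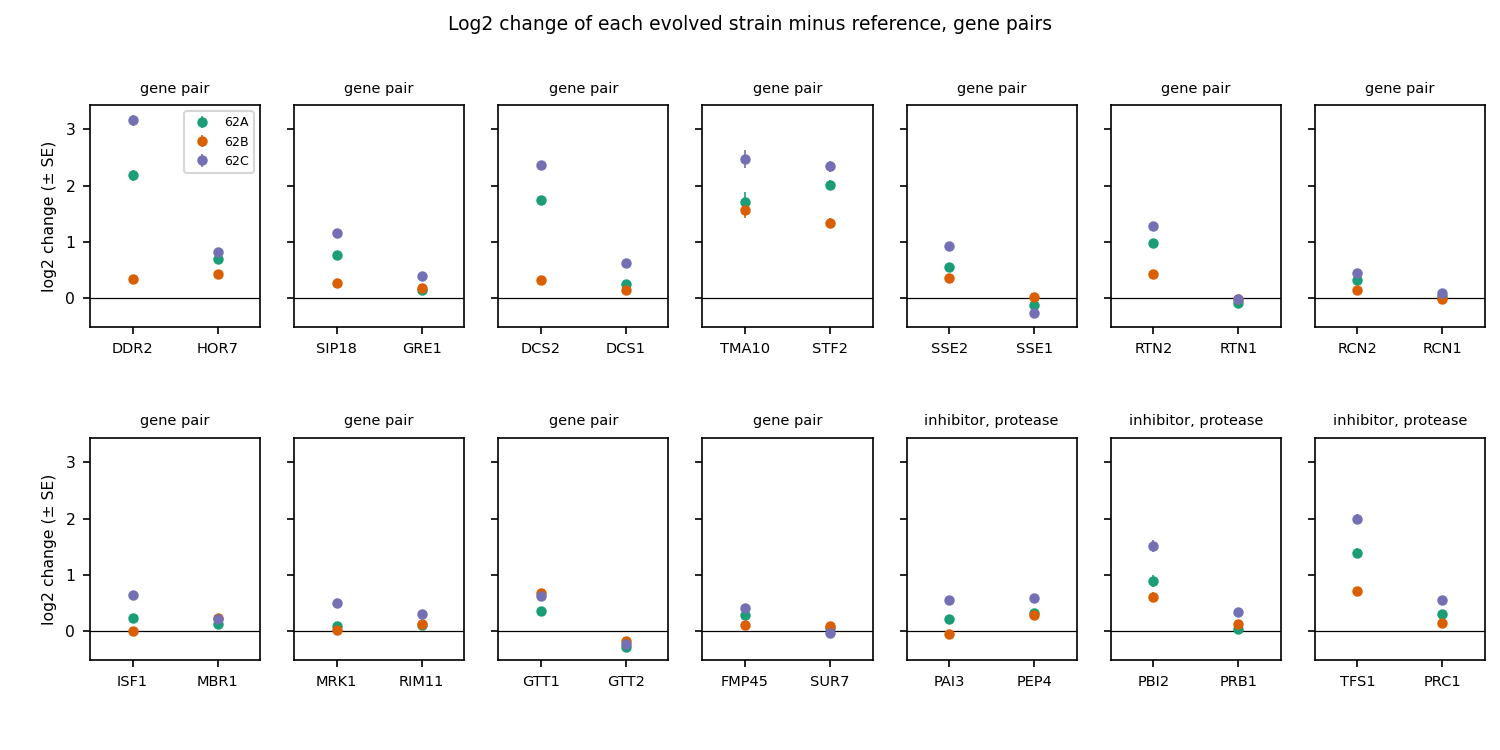
Log2 change of each evolved strain relative to the reference (points, with standard errors) for both genes of 11 gene pairs and of 3 pairs of a vacuolar protease and its inhibitor. TFS1 and PBI2 lie above PRC1 and PRB1 in every strain, while PAI3 and PEP4 are at about the same height in 62C.

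Position was not used to choose the genes. By the order of protein-coding genes in the RefSeq table of the S288C assembly, 5 of the 39 had another member as a direct neighbour. DDR48, PAI3 and SIP18 lie side by side, as do HBT1 and FMP45. In 62C the 3 neighbours were higher by 1.88, 0.55 and 1.15, and in 62A by 1.31, 0.20 and 0.77. In 62B the changes were 0.65, −0.05 and 0.26, with PAI3, the middle gene, not called. DDR48 had the largest and PAI3 the smallest change of these neighbours in each strain. HBT1 and FMP45 were not alike, FMP45 being called higher in 62A and 62C and HBT1 in no strain. No protein-coding gene of the table overlaps any of the 39.

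A list of 30 further stress-induced genes outside the set gave 27 called higher in 62A, 23 in 62B and 29 in 62C (10.0%, 20.1% and 14.7% of all genes), with medians of 0.92, 0.54 and 1.35. ECM4, a glutathione transferase of the omega class, was the 1 gene called lower in any strain. It had a change of −0.39 ± 0.05 in 62B (limma adjusted p = 0.000229), and was called higher in 62A and 62C (0.26 and 0.86). With evolved strains as samples, YGP1, TSL1, HSP42 and HSP104 were called higher (limma adjusted p = 0.0364, 0.0419, 0.0477 and 0.0419). The list was fixed with earlier results known and overlaps the set in regulation, so it gives no independent support.

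Changes in transcripts of the upstream regulators were smaller. Of 26 regulators listed, 25 were measured, and 4 were called higher and 4 lower in 62A (10.0% and 14.9% of all genes), 3 and 8 in 62B (20.1% and 21.3%), and 7 and 5 in 62C (14.7% and 23.3%). Several of these counts lie near the shares of all genes, and nothing particular to the regulators is read from them. List medians were −0.03, −0.02 and −0.04, close to those of all genes. The factor gene MSN2, named for its place in the pathway, had values of 6.89 in 62A, 6.92 and 6.91 in 62B and 6.82 in 62C, against 6.87 and 6.90 in the reference, and MSN4 had 6.40 in 62A, 6.28 and 6.31 in 62B and 6.40 in 62C, against 6.26 and 6.23 in the reference. Neither was called in any strain, with changes between −0.07 and 0.16 and limma adjusted p of 0.975, 0.618 and 0.394 for MSN2 and 0.0848, 0.433 and 0.0554 for MSN4. TPK2, a catalytic subunit of protein kinase A, was called higher in each strain (0.37 ± 0.06 in 62A, 0.43 ± 0.05 in 62B and 0.69 ± 0.06 in 62C; limma adjusted p = 0.00225, 0.000134 and 2.6e-05). CYR1, the adenylate cyclase, was too (0.30 ± 0.06 in 62A, 0.34 ± 0.05 in 62B and 0.44 ± 0.06 in 62C). BCY1, the regulatory subunit that restrains the kinase, was called higher in 62B and 62C (0.41 ± 0.05 and 0.45 ± 0.07), and RAS2 and GIS1 in 62A and 62C.

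RAS1, SOK2 and YAP1 were called lower in all 3 strains. RAS1 encodes a GTPase that activates adenylate cyclase, and its changes were −0.30 ± 0.06 in 62A, −0.46 ± 0.05 in 62B and −0.28 ± 0.06 in 62C. SOK2, a transcription factor downstream of protein kinase A, had changes of −0.28 ± 0.07 in 62A, −0.26 ± 0.06 in 62B and −0.47 ± 0.07 in 62C. YAP1, the main factor of the oxidative stress response, had changes of −0.29 ± 0.06 in 62A, −0.36 ± 0.05 in 62B and −0.27 ± 0.06 in 62C and was the 1 regulator called lower with strains as samples (limma adjusted p = 0.043); CYR1 was the 1 called higher (0.0466). The kinase gene SCH9 was called lower in 62A and 62C (−0.30 ± 0.07 and −0.30 ± 0.07), with 0.13 ± 0.06 in 62B. Transcript levels do not measure the activity or localisation of these proteins.

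**Figure D5:**
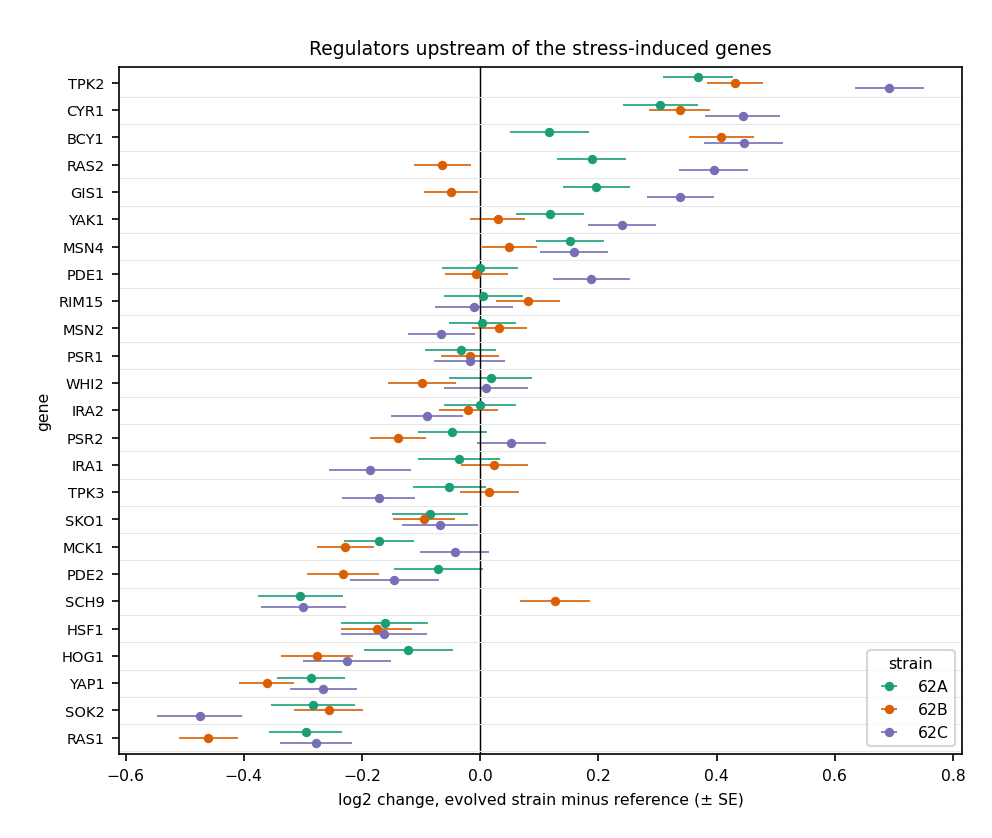
Log2 change of 25 regulators upstream of the stress-induced genes in each evolved strain relative to the reference (points, with standard errors). The points span a much narrower range than those of the stress-induced genes, from −0.47 for SOK2 in 62C to 0.69 for TPK2 in 62C, with MSN2 near 0.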

How the data were processed

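RNA was measured on 6 Affymetrix yeast arrays. The submitters' processing notes name RMA and affy as the tools behind the deposited log2 values. Their versions, the arrays normalized together and the genome build were not given in the sources used here. The table held 10928 probe sets: 5498 named 1 S. cerevisiae gene, 1746 a gene of another species, 1 several genes and 3683 none. Where a gene had more than 1 probe set (47 genes), the brightest was kept, leaving 5449 genes.

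Values were not rescaled. All fits used limma 3.58.1 in R 4.3.3 with Benjamini-Hochberg adjustment over all genes and a threshold of 0.05. Strains were compared in 1 fit over 6 arrays (2 residual degrees of freedom, from the 62B and reference pairs). For evolved strains against reference, each strain was 1 sample (3 degrees of freedom). Errors are standard errors of these fits. The comparison of 62C with 62A was added after the data were seen.

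The members, gene lists and pairs were chosen with earlier results of these data known. Values on every array were given for the 12 members with the largest change, for members below the reference and for the gene pairs, and then for the rest. From the other lists up to 4 genes in each direction were to be named by smallest p. ECM4, PHO8, LAP3, ATH1, MSN2, MSN4, PRC1, SCH9 and GIS1 were also named, some after their values were seen. The rule was not kept strictly. Of the regulators, MCK1, called lower in 62B (−0.23 ± 0.05), and HOG1, called lower in 62B and 62C (−0.28 ± 0.06 and −0.23 ± 0.08), were left out above. APE3, a listed hydrolase called higher in 62C (0.23 ± 0.06), was left out too. Apart from ECM4, the further stress-induced genes were named only with strains as samples. Genes such as GPH1, HSP12 and PGM2 (log2 changes of 3.99, 3.77 and 2.68 in 62C) were therefore left out above. Promoter motifs and sequences were not analysed here. Same-numbered 62B and reference arrays were not paired (correlation of deviations −0.06 over genes). Alternatives were quantile normalization, a filter on dim genes, mean of probe sets, other treatments of strain, a replicate block and leaving out each array. Precision is limited by how few arrays there are.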

Additional observations from a re-analysis of the deposited data

Results flagged for a closer look

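The response of the set differed between 62B and the other evolved strains: 30 of the 39 genes were called lower in 62B than in the mean of 62A and 62C and 2 were called higher in the limma fit, the strains having been compared directly (13.8% and 20.3% of all genes). HBT1 lay on opposite sides of the reference, with both 62B arrays below both reference arrays and 62A and 62C above both. Its difference between 62B and the mean of 62A and 62C was −0.11 ± 0.05 on the log2 scale and was not called. The opposite directions were not tested. No strain has enough arrays for a single array to be judged an outlier.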

How the results depend on the processing

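Over all the alternatives run, 0 called changes of members turned their sign. With strains as samples, 6 members were called higher: 2 with strain as a random block over 6 arrays, and between 0 and 6 when 1 array was left out. Over all genes, the 107 called higher and 152 lower became 59 and 40 without 62C, 3 and 3 without 62A, 0 and 0 without either reference array, 250 and 408 with each evolved array as 1 sample and 10 and 11 with the random block. The median change of 0.57 became 0.51 with a replicate block and 0.54 with each evolved array as 1 sample, and lay between 0.45 and 0.62 with 1 array left out. In single strains, counts of members called higher stayed within 1.5 times of 32, 29 and 36. The median in 62B lay between 0.28 and 0.40 with 1 array left out, and that in 62C was 0.91 with a replicate block. For 62B against the mean of 62A and 62C the median was −0.40 with a replicate block and between −0.40 and −0.34 with 1 array left out, and the 2 genes called higher were 1 with the block and between 0 and 2 with 1 array left out. For 62C against 62A, 18 calls became 26 under a replicate block and between 6 and 29 with 1 array left out. The replicate numbers carry no known pairing, and a call lost under the block is not a weaker effect. 62A or 62C could not be left out of its own comparison. Depth does not apply to arrays, and genes near background have compressed changes.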
